A study of Mus musculus with 4 samples.

Results

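The unfolded protein response and the integrated stress response were followed through 34 genes, chosen by name and all present among the 17519 genes of the deposited table. They comprise 3 stress sensors, 9 transcription factors and targets of the integrated stress response, 11 chaperones and co-chaperones of the endoplasmic reticulum (ER), 4 protein disulfide isomerases, and 7 genes of ER-associated degradation (ERAD) and translocation. RNA was sequenced from spleen cells of C57Bl.6 mice that carried MHC class II and had been purified on magnetic beads. The cells of 3 libraries had spent 24 h in culture with PSA (polysaccharide A from the capsule of the bacterium Bacteroides fragilis) at 50 µg/ml and are called day 1, libraries 1 to 3, and 1 library came from freshly isolated cells without PSA (day 0). No cells cultured for 24 h without PSA were analysed here, so PSA and a day in culture cannot be told apart. Each level is in FPKM, which scales fragments to transcript length and library size. Whether separate mice or cultures gave the day 1 libraries is not stated, so a p-value here measures only how far these libraries spread, which may be technical.

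When unfolded proteins gather in the ER, the sensors IRE1, PERK and ATF6 raise the folding and degradation capacity of the organelle, and PERK also slows protein synthesis by phosphorylating the initiation factor eIF2. Other eIF2 kinases respond to lack of amino acids or haem and to double-stranded RNA, and all of them lead to translation of ATF4, a transcription factor for amino acid and stress genes; this shared branch is the integrated stress response. In B lymphocytes the IRE1 and XBP1 branch is known for its part in the change to antibody-secreting plasma cells.

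The day 0 library was shallow and unlike the others, which bears on every value. From the steps between low FPKM values, 1 fragment in a 2 kb transcript is worth an FPKM of about 0.167, 0.148 and 0.107 at day 1, against 2.34 at day 0. From 2073 to 2663 genes were listed at 0 at day 1, against 7378 at day 0, and protein-coding genes held 80.2% to 83.4% of the FPKM at day 1, against 11.5% at day 0. The defining genes of the sort were abundant: the invariant chain Cd74 stood at 8316, 8399 and 7452 at day 1, against 2936 at day 0, and H2-Ab1 at 5092, 4840.2 and 3434 at day 1, against 4529 at day 0. Of the B cell markers 4 of 8 rose and 2 fell in the test described below, where 35.0% of all genes tested rose and 19.0% fell. The summed FPKM of the 8 was 3216 to 3841 at day 1, against 3402 at day 0. Pax5 alone gave 161, 158 and 165 at day 1, against 2118 at day 0, and the other 7 B cell markers summed to 3052 to 3679.9 at day 1, against 1284 at day 0. The macrophage and monocyte markers summed to an FPKM of 120.2 to 131 at day 1, against 136 at day 0, with 3 of 9 rising and 6 falling (35.0% and 19.0% of all genes tested). The similar sums hide changes in both directions. Lyz2 gave 69.3, 80.9 and 77.3 at day 1, against 29.1 at day 0, and C1qa 0.98, 0.58 and 0.21, against 23.2. The authors' deposited table calls 5 of the 9 lower and 0 higher. The dendritic cell markers summed to 19.6 to 24.8 at day 1, against 237 at day 0, where Siglech alone gave 222 and Zbtb46 was at 0. In such bulk samples, fewer cells of a type and less RNA per cell cannot be told apart.

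The genes did not move as one block. By limma on log2(FPKM + 1), with Benjamini-Hochberg adjustment over all 13903 genes tested and a threshold of 0.05, 12 of the 34 genes rose, 4 fell and 18 did not pass. The share that rose, 35.3%, lay beside 35.0% of all genes tested, and the share that fell, 11.8%, beside 19.0%, so neither count sets the group apart. The median log2 change was 0.35, against 0.59 over all genes tested. Among genes above 0 at day 0 it was 0.16, against 0.018, because genes listed at 0 at day 0 can only rise. Without day 1 library 2 the counts were 5 and 0 by limma, beside 2317 and 1317 of all 13903 genes tested. At an unadjusted p under 0.05 that fit had 12 of the 34 genes higher and 2 lower, a threshold at which all genes were not counted. With the median change of all genes tested set to 0, a shift of 0.59, 7 rose and 10 fell, beside 3034 and 3895 of all 13903 genes tested. In that setting the calls of Chac1, Ppp1r15b, Pdia6, Derl1 and Herpud1 ended. The day 1 libraries all lay above day 0 for 18 genes (48.6% of all genes do so) and all below it for 10 (25.4%). They lay on both sides of it for 6. Of all genes 26.0% fell in neither class, a share that also counts ties with day 0 at 0. The summed FPKM of all 34 genes was 1817, 1924 and 1893 at day 1, against 2281 at day 0.

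**Figure D1:**
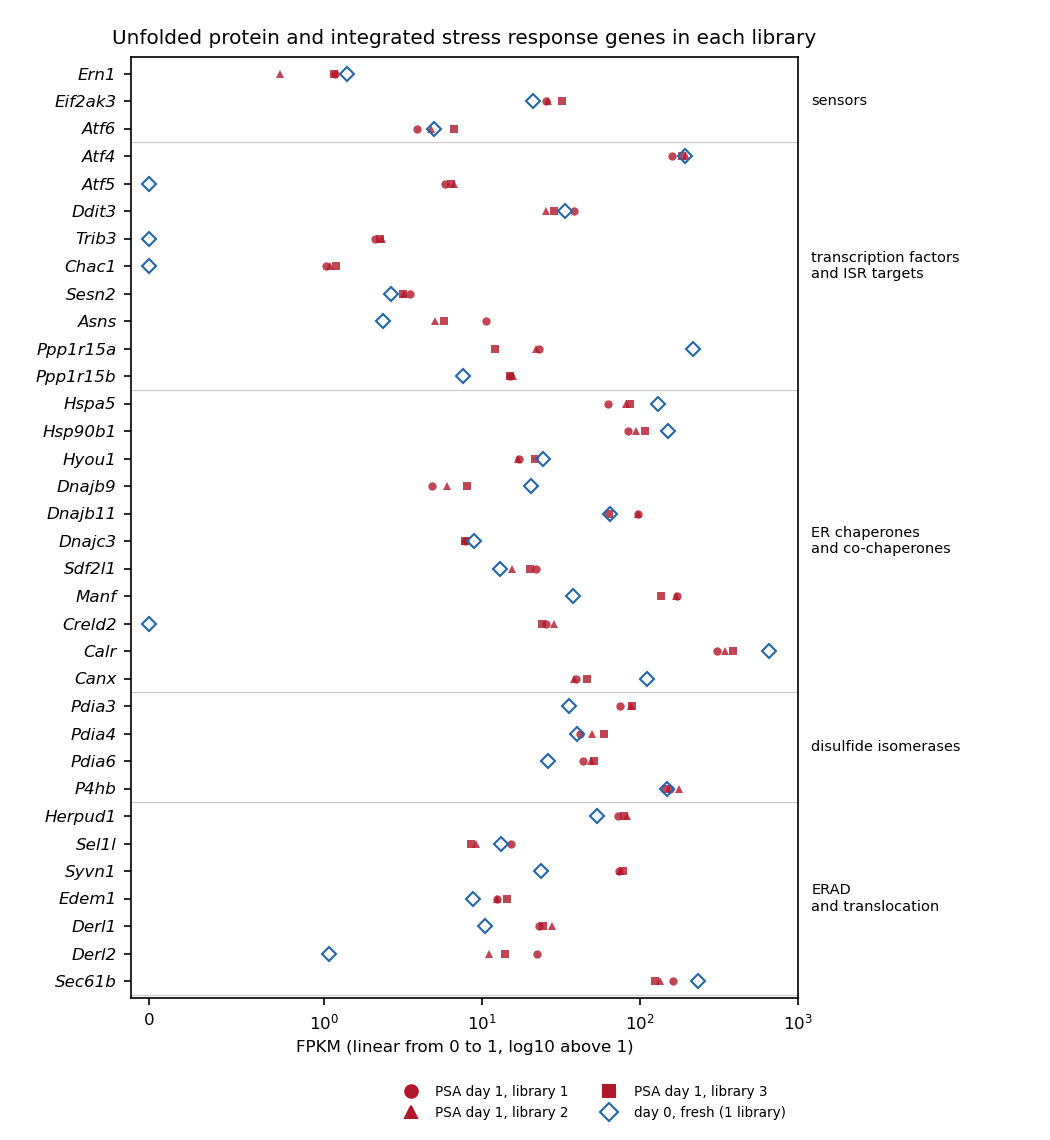
FPKM of the 34 genes in each library (horizontal axis, linear from 0 to 1 and log10 above), ordered by role from top to bottom, with filled symbols for the 3 PSA day 1 libraries and open diamonds for the day 0 library. Ppp1r15a, at 12.1 to 22.9 at day 1 against 216 at day 0, shows the widest gap towards lower day 1 values, and Atf5, Trib3, Chac1 and Creld2 are at 0 in the day 0 library.

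The authors' deposited table carries a second measure of the same contrast, a log2 fold change of day 1 over day 0 with a false discovery rate, and it calls none of these genes higher and 2 lower, Ppp1r15a and Dnajb9. Over all genes that table calls 0.280% higher and 2.53% lower. At an unadjusted p under 0.05 it has 2 of the 34 genes higher, Atf5 and Trib3, and 3 lower, Ppp1r15a, Dnajb9 and Sec61b, while limma has 13 and 7 genes. All genes were not counted at that unadjusted threshold, so these numbers do not set the group apart. The median log2 fold change of the 34 genes in the authors' deposited table was -0.013, and that of all its genes 0.028. Both measures had the same sign for 26 of the 34 genes, where 77.3% of all genes tested shared it; the libraries behind both are the same, so this is no independent check. The genes that limma called with the opposite sign were Ppp1r15b and Herpud1, as were 13.4% of all its calls. The median gap between them was 0.51 on the log2 scale for these genes and 0.87 for all genes tested.

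**Figure D2:**
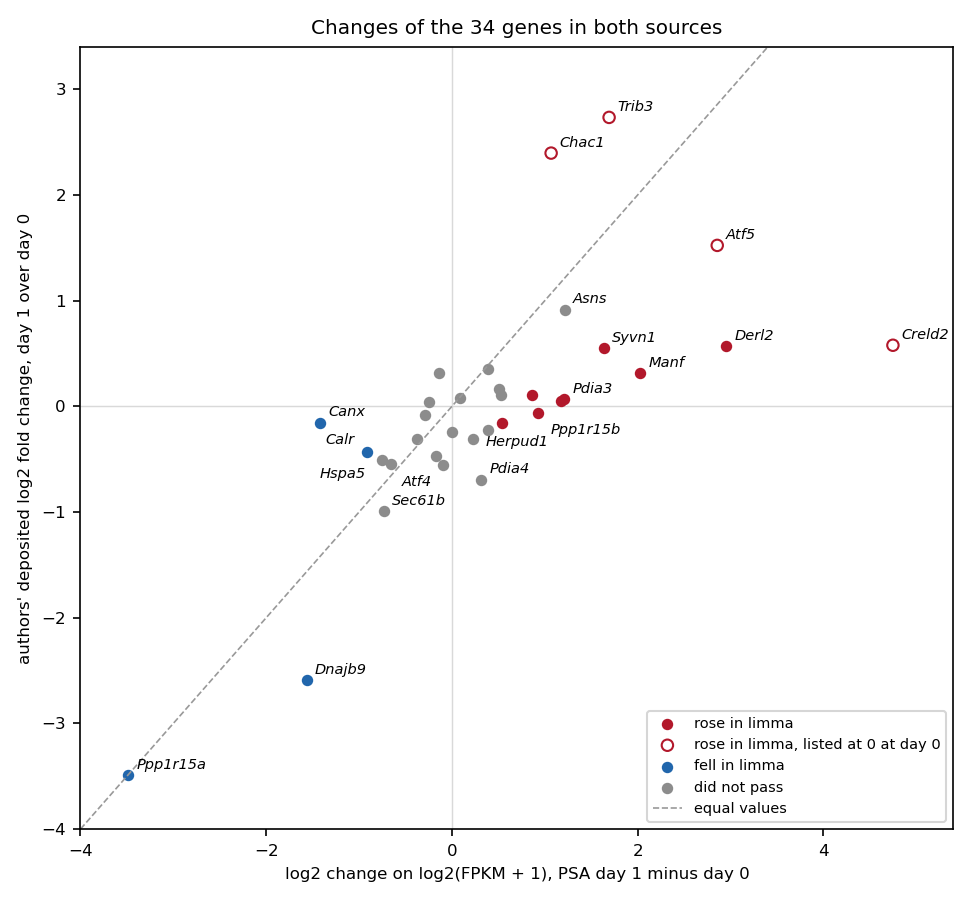
Log2 change on log2(FPKM + 1), PSA day 1 minus day 0 (horizontal axis), against the authors' log2 fold change from their deposited table (vertical axis) for each of the 34 genes; colours give the limma call, open circles mark genes listed at 0 at day 0, and the dashed line marks equal values. Ppp1r15a and Dnajb9 are far below 0 on both axes, Trib3, Chac1 and Atf5 are above 1 on both, and Creld2, Derl2 and Manf are above 2 on the horizontal axis but below 1 on the vertical one.

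Of the phosphatase subunits that act on eIF2, the inducible one fell, in limma and in the authors' deposited table, and the constitutive one rose in limma alone. Ppp1r15a (chromosome 7, 45522916 to 45526268, GRCm38) encodes GADD34, the stress-induced subunit that directs protein phosphatase 1 to eIF2 and so restores protein synthesis. It had an FPKM of 22.9, 22.0 and 12.1 at day 1, against 216 at day 0. All 3 day 1 libraries lay far below day 0, the mean of 19.0 ± 5.99 (SD, n = 3) being 11.4-fold lower (log2 change -3.49 ± 0.45, SE, limma adjusted p = 0.012), and the authors' deposited table gives the same log2 value to 2 decimals, -3.49 (false discovery rate 1.8e-08). The day 0 value stands for about 135 fragments, with an exact Poisson 95% interval of 181 to 255 FPKM. Ppp1r15b (chromosome 1, 133131143 to 133139783) encodes CReP, the partner that is made without stress, and had an FPKM of 15.1, 15.8 and 15.0 at day 1, against 7.58 at day 0. The day 1 values were close together and above day 0 (log2 change 0.92 ± 0.11, SE, limma adjusted p = 0.011), but the authors' deposited table gives -0.06 without a call, and the limma call ended with the median change set to 0. Within a library, where scaling between libraries drops out, the ratio of Ppp1r15a to Ppp1r15b was 1.52, 1.39 and 0.804 in the day 1 libraries, against 28.4 at day 0. The limma calls of both genes ended without day 1 library 2, where Ppp1r15a had a log2 change of -3.62 and Ppp1r15b one of 0.90. In the annotation the exons of Ppp1r15a overlap those of Tulp2 on the opposite strand, and the use of strand in counting is not given in the sources used here.

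Atf3 and Cebpb, other genes of the signalling list, fell beside Ppp1r15a. Atf3, an ATF4 target and stress-induced repressor, had an FPKM of 1.85, 3.07 and 3.56 at day 1, against 29.4 at day 0 (log2 change -3.02 ± 0.34, SE, limma adjusted p = 0.0094). Cebpb, a bZIP factor that can pair with ATF4, had 4.69, 4.11 and 4.92 at day 1, against 12.6 at day 0 (log2 change -1.29 ± 0.16, SE, limma adjusted p = 0.011). In both genes every day 1 library was below day 0, and the authors' deposited table calls both lower, at -3.78 for Atf3 and -2.26 for Cebpb on the log2 scale. The day 0 value of Cebpb stands for about 4.05 fragments, and the day 1 values lie inside its exact Poisson 95% interval, 3.47 to 32.1 FPKM. Cebpg, a further partner of ATF4, had 6.66, 4.89 and 6.40 at day 1, against 3.54 at day 0, all above day 0, and did not pass (log2 change 0.61 ± 0.23, SE, limma adjusted p = 0.10). Of 8 markers of stress from cell handling, 5 fell and 1 (Dnajb1) rose, where 19.0% of all genes tested fell and 35.0% rose. None was at 0, and the summed FPKM of the 8 was 46.1 to 55.4 at day 1, against 476 at day 0. The AP-1 genes Fos, Fosb and Jun made up most of the day 0 sum, with 5.87 to 6.76 at day 1, against 432 at day 0. The other 5 markers summed to 40.2 to 48.6 at day 1, against 43.5 at day 0, but did not move together. Egr1, Hspa1a and Hspa1b were lower in every day 1 library, while Dnajb1 and Hsph1 were higher in every one. The part of stress from cell handling in the results for Ppp1r15a, Atf3, Cebpb and Dnajb9 was not tested.

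For the transcripts of ATF4 itself and of CHOP, day 0 lay inside the range of the day 1 libraries. Atf4, whose protein is controlled mainly through translation, had an FPKM of 158, 196 and 184 at day 1, against 191 at day 0; library 1 was below day 0 and library 2 above (log2 change -0.10 ± 0.17, SE, limma adjusted p = 0.65). Ddit3, which encodes CHOP, a factor linked to cell death in lasting ER stress, had 38.4, 25.2 and 28.4 at day 1, against 33.3 at day 0, where only library 1 was above day 0 (log2 change -0.14 ± 0.29, SE, limma adjusted p = 0.70). With the median change of all genes set to 0, Atf4 was called lower, at -0.69; the authors' deposited table gives -0.56 for Atf4 and 0.32 for Ddit3, neither called. The exons of Ddit3 overlap those of Mars and Gm4189 on the opposite strand.

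The low-level targets Trib3, Chac1 and Atf5 had values above 0 only at day 1. Trib3, a pseudokinase that restrains ATF4 and AKT signalling, had an FPKM of 2.11, 2.33 and 2.26 in the day 1 libraries and was listed at 0 at day 0. Chac1, which degrades glutathione, had 1.03, 1.08 and 1.18 in the day 1 libraries and was listed at 0 at day 0. Atf5, a factor related to ATF4, had 5.81, 6.63 and 6.32 in the day 1 libraries and was listed at 0 at day 0. The day 1 libraries were close together in all 3 genes, with coefficients of variation of 5.14%, 7.23% and 6.66% for Trib3, Chac1 and Atf5. Limma called all 3 higher, with adjusted p of 0.0069, 0.016 and 0.0038, and the call of Chac1 ended without day 1 library 2, at 1.07. At the depth of day 0, the day 1 levels of Trib3, Chac1 and Atf5 would give about 1.01, 0.383 and 2.66 fragments, and they lie within the exact Poisson 95% interval of a count of 0, which reaches an FPKM of 8.14, 10.6 and 8.68. For Trib3, Chac1 and Atf5 the authors' deposited table gives 2.73, 2.40 and 1.52 on the log2 scale, none of them called. Exons of Atf5 overlap Il4i1 on the opposite strand.

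The other targets had day 1 values above day 0 in FPKM and did not pass the test. Asns, asparagine synthetase, had an FPKM of 10.6, 5.04 and 5.74 at day 1, against 2.36 at day 0, all above day 0 and library 1 far above the others (log2 change 1.21 ± 0.47, SE, limma adjusted p = 0.11). Sesn2, a sensor of leucine that restrains mTORC1, had 3.51, 3.19 and 3.17 at day 1, against 2.67 at day 0 (log2 change 0.23 ± 0.15, SE, limma adjusted p = 0.29), but -0.31 in the authors' deposited table and -0.37 with the median change of all genes set to 0. At day 0 these values stand for about 1.38 and 1.98 fragments for Asns and Sesn2.

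**Figure D3:**
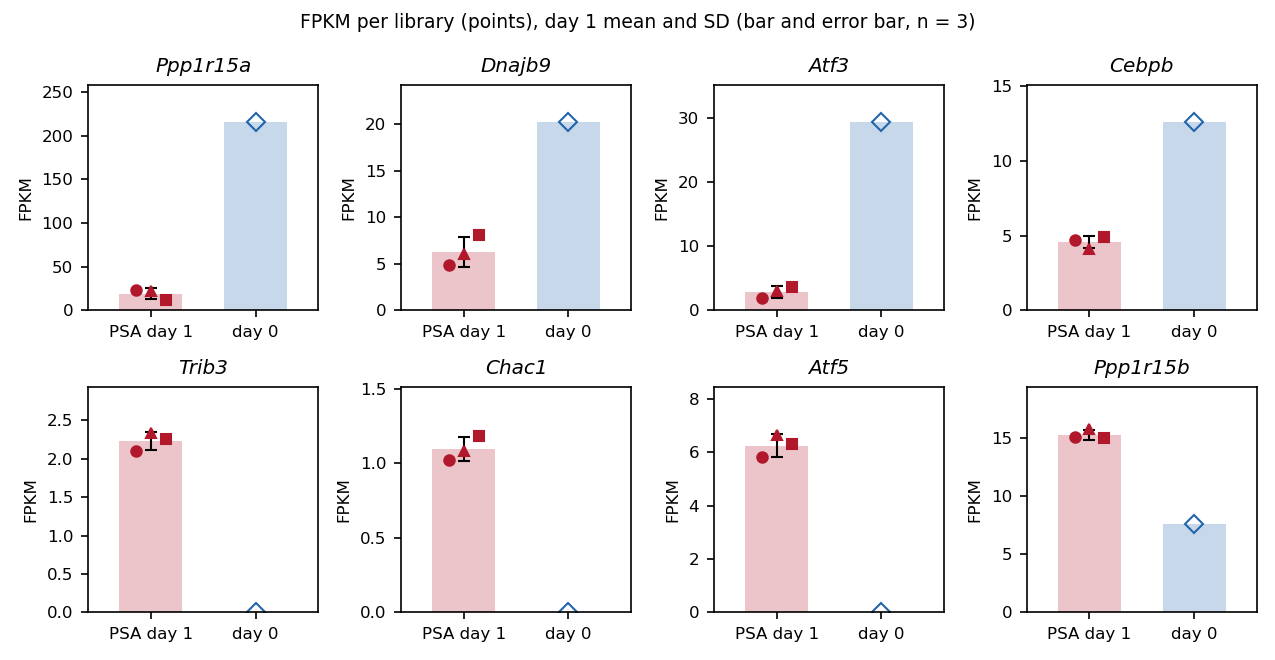
FPKM (vertical axes, each from 0) of 8 stress response genes, with points for single libraries, bars for the day 1 mean and the day 0 value, and error bars for the SD of the 3 PSA day 1 libraries, which stand left of the single day 0 library. Ppp1r15a, Dnajb9, Atf3 and Cebpb are lower in every day 1 library, while Trib3, Chac1 and Atf5 are listed at 0 at day 0 and Ppp1r15b stands at 15.0 to 15.8 against 7.58.

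None of the 3 sensors passed the test in limma, and none had an unadjusted p under 0.05 there or in the authors' deposited table. With the median change of all genes set to 0, 1 of the 3 was lower at that unadjusted limma threshold. Ern1, which encodes the kinase and RNase IRE1, had an FPKM of 1.18, 0.750 and 1.15 at day 1, against 1.38 at day 0, a level that stands for about 2.41 fragments at day 0. Eif2ak3, which encodes PERK, was the most abundant sensor, at 25.3, 26.2 and 32.1 at day 1, against 20.9 at day 0, with all day 1 libraries a little above day 0 (log2 change 0.39 ± 0.19, SE, limma adjusted p = 0.17). Atf6, a membrane-bound factor released by cleavage in the Golgi, had 3.86, 4.77 and 6.61 at day 1, against 4.97 at day 0. The Atf6 values of day 1 enclosed that of day 0 (log2 change 0.001 ± 0.32, SE). Xbp1, the mRNA that IRE1 splices, rose, with an FPKM of 47.2, 49.0 and 58.4 at day 1, against 18.7 at day 0 (log2 change 1.41 ± 0.17, SE, limma adjusted p = 0.011), and the authors' deposited table gives 0.56 without a call. The unspliced and spliced forms of Xbp1 are not told apart by these values.

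Most of the ER chaperones had their day 1 values below day 0, and some passed the test. Of 11, 3 fell, 2 rose and 6 did not pass, where 19.0% of all genes tested fell and 35.0% rose. In 7 of the 11 all 3 day 1 libraries were below day 0, where 25.4% of all genes show this. That share includes the 7378 genes listed at 0 at day 0, which cannot fall below it, so it understates the background. The median log2 change of the 11 was -0.38 against 0.59 for all genes tested, and -0.31 against 0.028 in the authors' deposited table. Among genes above 0 at day 0 the median was -0.52 for the chaperones and 0.018 for all genes tested. Of all 10028 genes tested there, 2719 fell. Hspa5, which encodes BiP, the main Hsp70 of the ER and the usual readout of ER stress, had an FPKM of 62.8, 81.0 and 86.6 at day 1, against 129 at day 0. Every day 1 library was below day 0, but the difference did not pass, although it was called lower with the median change of all genes set to 0, at -1.35 (log2 change -0.75 ± 0.24, SE, limma adjusted p = 0.074; authors' deposited table -0.51). Hsp90b1, the ER form of Hsp90, had 83.3, 93.9 and 108 at day 1, against 149.5 at day 0 and likewise did not pass (log2 change -0.66 ± 0.19, SE, limma adjusted p = 0.062). Exons of Hsp90b1 overlap those of Gm15344 and Gm25745 on the same strand. The ratio of Hspa5 to Hsp90b1 was 0.753, 0.863 and 0.805 in the day 1 libraries, against 0.863 at day 0. The day 1 ratios were at or below that of day 0. Hyou1, a large Hsp70-like exchange factor for BiP, had an FPKM of 17.0, 16.9 and 21.5 at day 1, against 24.2 at day 0 (log2 change -0.38 ± 0.20, SE, limma adjusted p = 0.19). Dnajc3, a BiP co-chaperone, had 7.84, 7.83 and 7.79 at day 1, against 8.92 at day 0 (log2 change -0.17 ± 0.12, SE, limma adjusted p = 0.30). All day 1 libraries were below day 0 in both genes, and neither passed. With the median change of all genes set to 0, limma called Hsp90b1, Hyou1 and Dnajc3 lower, at -1.25, -0.97 and -0.76.

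Of the chaperones listed, Dnajb9 alone was called by limma and in the authors' deposited table. It encodes ERdj4, a BiP co-chaperone made on IRE1 and XBP1 signalling that holds IRE1 in check, and lies on chromosome 12, 44205559 to 44210326 (GRCm38). Its FPKM was 4.83, 6.02 and 8.04 at day 1, against 20.2 at day 0. All day 1 values were below day 0, by 3.21-fold on the means (log2 change -1.57 ± 0.31, SE, limma adjusted p = 0.027), and the authors' deposited table gives -2.59 (false discovery rate 3.9e-05). The ratio of Dnajb9 to Hspa5 was 0.0770, 0.0742 and 0.0928 in the day 1 libraries, against 0.157 at day 0. The limma call ended without day 1 library 1 and without library 2, where the log2 changes were -1.42 and -1.55. At day 0 the value stands for about 11.0 fragments. Dnajb11, another BiP co-chaperone, had 97.5, 97.7 and 63.2 at day 1, against 64.4 at day 0, and library 3 stood at the day 0 level while libraries 1 and 2 were higher (log2 change 0.39 ± 0.34, SE, limma adjusted p = 0.39).

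The lectin chaperones Calr and Canx, which hold newly made glycoproteins and load MHC class I, fell. Calr, calreticulin, was the most abundant gene of the group, with an FPKM of 306, 347 and 388 at day 1, against 652 at day 0 (log2 change -0.91 ± 0.19, SE, limma adjusted p = 0.030). Canx, calnexin, had 39.1, 38.0 and 46.4 at day 1, against 111 at day 0, a 2.71-fold difference of the means (log2 change -1.42 ± 0.17, SE, limma adjusted p = 0.0099). In both genes the day 1 libraries lay below day 0, and outside the exact Poisson 95% interval of its value, 589.6 to 719 for Calr and 91.7 to 134 for Canx, which covers counting error only. The authors' deposited table gives smaller changes, -0.43 for Calr and -0.15 for Canx, and calls neither. The Calr call ended when any 1 day 1 library was left out, with log2 changes of -1.0 to -0.83, and that of Canx ended without library 2, at -1.37.

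Manf and Creld2, small secreted proteins induced by ER stress, rose. Manf (chromosome 9, 106838312 to 106891979, GRCm38), a BiP-binding factor, had an FPKM of 170.3, 169 and 136 at day 1, against 37.9 at day 0. All day 1 libraries were well above day 0, by 4.19-fold on the means (log2 change 2.03 ± 0.19, SE, limma adjusted p = 0.0068), but the authors' deposited table gives 0.32 without a call. The ratio of Manf to Hspa5 was 2.71, 2.09 and 1.57 in the day 1 libraries, against 0.294 at day 0. Exons annotated to Manf overlap those of Rbm15b on the same strand and of Dcaf1 and 4930524O07Rik on the opposite one, so the Manf value is uncertain. Creld2, a disulfide-handling protein, had 25.4, 28.6 and 23.8 in the day 1 libraries and was listed at 0 at day 0 (limma adjusted p = 0.0029). About 7.56 fragments of Creld2 would be seen at day 0 if its level were that of day 1, and the authors' deposited table gives 0.58 without a call, so the FPKM of 0 does not show that Creld2 was absent. Sdf2l1, a partner of the BiP co-chaperones, had 21.8, 15.5 and 20.1 at day 1, against 13.0 at day 0 (log2 change 0.51 ± 0.24, SE, limma adjusted p = 0.17).

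Most of the chaperone promoters that could be read hold the same element. The ER stress element, the letters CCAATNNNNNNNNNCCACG to which the factors NF-Y and ATF6 or XBP1 are known to bind, was searched on both strands in windows of 300 bases (250 before and 50 after each RefSeq start, GRCm38.p6), of which 31 windows matched 29 of the 34 genes; Atf6, Ppp1r15b, Hyou1, Manf and Derl1 had none. It was found in 8 of those 31 windows (25.8%), in 6 of 9 chaperone windows, and in 39 of 32851 windows of all genes (0.119%). The genes were chosen by name for their part in this response, so the higher share describes the list and tests nothing. A looser search for CCAAT and CCACG anywhere in the window, which includes the element itself, matched 20 of 31 windows of these genes and 11.7% of all windows. The XBP1 motif TGACGTGG and the ATF4 motif TGATGNAAT were in none of the 31 windows, against 0.676% and 0.965% of all windows. At such low shares, 31 windows are too few to read anything from this absence. Only these exact letters within the 300 bases were searched. Each match is shown with 5 flanking bases, read 5′ to 3′ on the strand that carries it, to let the differing spacers be compared; capitals mark CCAAT and CCACG.
Hspa5 (chr2:34772020-34772048, gene strand, 65 to 47 bases before the start): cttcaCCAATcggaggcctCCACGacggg
Calr (chr8:84847070-84847098, opposite strand, 162 to 144 bases before the start): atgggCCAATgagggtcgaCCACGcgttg
Hsp90b1 (chr10:86705633-86705661, gene strand, 212 to 194 bases before the start): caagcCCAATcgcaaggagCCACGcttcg
Hsp90b1 (chr10:86705528-86705556, opposite strand, 107 to 89 bases before the start): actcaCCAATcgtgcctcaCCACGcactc
Canx (chr11:50325795-50325823, gene strand, 145 to 127 bases before the start): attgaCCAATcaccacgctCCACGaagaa
Pdia6 (chr12:17266486-17266514, gene strand, 98 to 80 bases before the start): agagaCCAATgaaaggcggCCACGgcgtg
Dnajc3 (chr14:118937822-118937850, gene strand, 105 to 87 bases before the start): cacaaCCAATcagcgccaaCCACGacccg
Creld2 (chr15:88819515-88819543, opposite strand, 126 to 108 bases before the start): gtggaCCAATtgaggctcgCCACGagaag
Syvn1 (chr19:6046527-6046555, gene strand, 44 to 26 bases before the start): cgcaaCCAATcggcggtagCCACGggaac
The 8 genes with the element included 2 that fell (Calr and Canx), 3 that rose (Pdia6, Creld2 and Syvn1) and 3 that did not pass (Hspa5, Hsp90b1 and Dnajc3), so limma called carriers in both directions. The authors' deposited table calls none of the 8. It gives -0.43 and -0.15 for Calr and Canx, and 0.11, 0.58 and 0.55 for Pdia6, Creld2 and Syvn1. The limma calls of Calr, Canx and Pdia6 ended in some settings, and Creld2 was listed at 0 at day 0. A match is a description of letters and not evidence of a bound site. The 250 bases before the start are given for Hspa5, the usual readout, and for Pdia6, which had the most matches of any kind among the carriers past the threshold, with the element in capitals.
Hspa5 (chr2:34771840-34772089, plus strand): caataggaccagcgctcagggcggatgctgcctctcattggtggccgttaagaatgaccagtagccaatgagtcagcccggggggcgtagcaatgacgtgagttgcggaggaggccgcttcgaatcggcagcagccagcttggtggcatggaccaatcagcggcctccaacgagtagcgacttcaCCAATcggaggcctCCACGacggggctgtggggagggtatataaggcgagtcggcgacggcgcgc
Pdia6 (chr12:17266339-17266588, plus strand): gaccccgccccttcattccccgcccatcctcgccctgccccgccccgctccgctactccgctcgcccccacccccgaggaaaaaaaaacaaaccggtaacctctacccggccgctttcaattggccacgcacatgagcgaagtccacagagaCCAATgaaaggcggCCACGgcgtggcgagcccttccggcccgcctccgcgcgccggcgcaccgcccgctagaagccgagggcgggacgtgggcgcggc

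**Figure D4:**
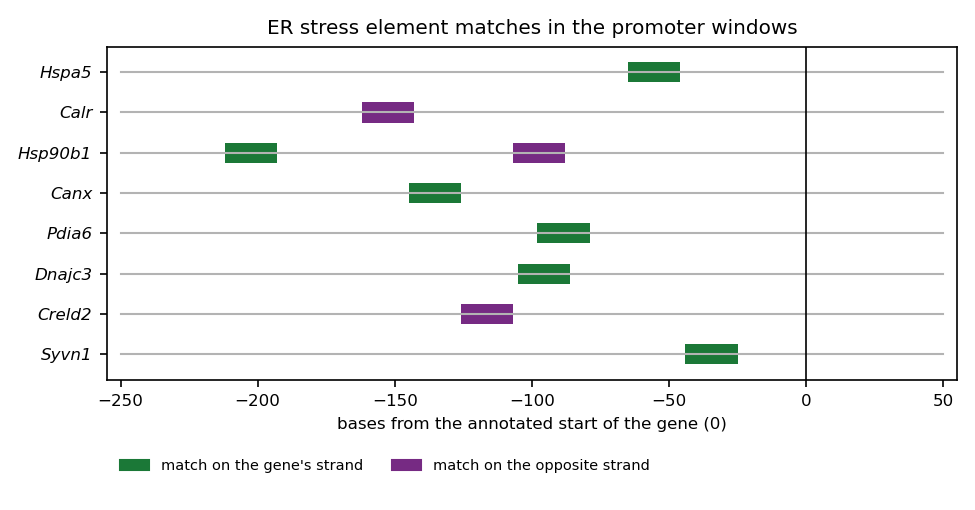
Position of each ER stress element match (blocks of 19 bases) in the promoter windows of the 8 genes that hold it, in bases from the RefSeq start of the gene (horizontal axis, 0 is the start), coloured by strand. All matches lie before the start, the nearest in Syvn1 at 44 to 26 bases and the farthest in Hsp90b1 at 212 to 194 bases.

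Protein disulfide isomerases, which form and shuffle disulfide bonds, had 2 rises among 4 genes, and none fell by limma, also not at an unadjusted p under 0.05, beside 35.0% and 19.0% of all genes tested. With the median change of all genes set to 0, 1 of the 4 was lower at that unadjusted limma threshold. Pdia3, the isomerase that works with calnexin and calreticulin, had an FPKM of 74.5, 87.7 and 88.4 at day 1, against 35.5 at day 0, all day 1 libraries above day 0 (log2 change 1.21 ± 0.16, SE, limma adjusted p = 0.012). Pdia6 had 43.4, 49.1 and 51.3 at day 1, against 25.9 at day 0 (log2 change 0.86 ± 0.15, SE, limma adjusted p = 0.020). P4hb, the founding member of the family, had 154, 176 and 145 at day 1, against 148 at day 0, enclosing day 0 (log2 change 0.09 ± 0.16, SE, limma adjusted p = 0.65). Pdia4 had 41.6, 49.4 and 58.8 at day 1, against 39.7 at day 0, just above day 0 in every library, and did not pass (log2 change 0.31 ± 0.24, SE, limma adjusted p = 0.34). The calls of Pdia3 and Pdia6 ended without day 1 library 2, at log2 changes of 1.17 and 0.84, and without library 3, at 1.17 and 0.81. The authors' deposited table gives 0.07 for Pdia3, 0.11 for Pdia6, 0.08 for P4hb and -0.69 for Pdia4, none of them called. Exons of Pdia3 and Pdia6 overlap those of Catsper2 and Atp6v1c2 on the opposite strand. Pdia3 and its partners Calr and Canx were thus called in opposite directions by limma. The summed FPKM of the 4 isomerases was 314 to 362 at day 1, against 249 at day 0, while that of the 11 chaperones was 836 to 909.6 at day 1, against 1210.4 at day 0.

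The next genes withdraw misfolded proteins from the ER or carry new ones in. Of 7, 4 rose, none fell by the adjusted limma test (1 at an unadjusted p under 0.05) and 3 did not pass, where 35.0% of all genes tested rose and 19.0% fell. Syvn1, the ubiquitin ligase HRD1 of the ERAD complex, had an FPKM of 73.1, 74.3 and 78.2 at day 1, against 23.5 at day 0. The day 1 libraries were close together and 3.20-fold above day 0 on the means (log2 change 1.64 ± 0.10, SE, limma adjusted p = 0.0043), and the authors' deposited table gives 0.55 without a call. Sel1l, which holds the ligase in place, had 15.1, 9.20 and 8.54 at day 1, against 13.2 at day 0, with library 1 above day 0 and the others below (log2 change -0.29 ± 0.39, SE, limma adjusted p = 0.57). Derl1 and Derl2 encode channel-like Derlins of the same complex. Derl1 had 22.9, 27.6 and 24.2 at day 1, against 10.4 at day 0 (log2 change 1.18 ± 0.16, SE, limma adjusted p = 0.012). Derl2 had 22.2, 11.1 and 13.9 at day 1, against 1.08 at day 0, a ratio of means of 14.6 with a counting interval of 3.87 to 137, since its day 0 value stands for about 1.85 fragments (log2 change 2.95 ± 0.45, SE, limma adjusted p = 0.016). The authors' deposited table gives 0.05 and 0.57 for Derl1 and Derl2, neither called, and both limma calls ended without day 1 library 2, at 1.11 and 3.16, and without library 3, at 1.20 and 3.01. Exons of Derl2 overlap Mis12 and those of Syvn1 overlap Mrpl49 on the opposite strand.

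Herpud1, an ERAD scaffold strongly induced by ER stress, had an FPKM of 72.4, 82.5 and 78.7 at day 1, against 53.1 at day 0, all above day 0 (log2 change 0.54 ± 0.13, SE, limma adjusted p = 0.039). That small rise turned to -0.053 with the median change of all genes set to 0, stands at -0.16 in the authors' deposited table, and ended when any 1 day 1 library was left out, with log2 changes of 0.50 to 0.59. Edem1, a lectin that marks glycoproteins for disposal, had 12.5, 12.5 and 14.3 at day 1, against 8.71 at day 0 and missed the threshold (log2 change 0.53 ± 0.15, SE, limma adjusted p = 0.054). Sec61b, a subunit of the channel through which new proteins enter the ER, had 161, 134 and 124 at day 1, against 232 at day 0, all day 1 libraries below day 0 (log2 change -0.73 ± 0.20, SE, limma adjusted p = 0.055; called lower at -1.33 with the median set to 0), and -0.99 in the authors' deposited table without a call.

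**Figure D5:**
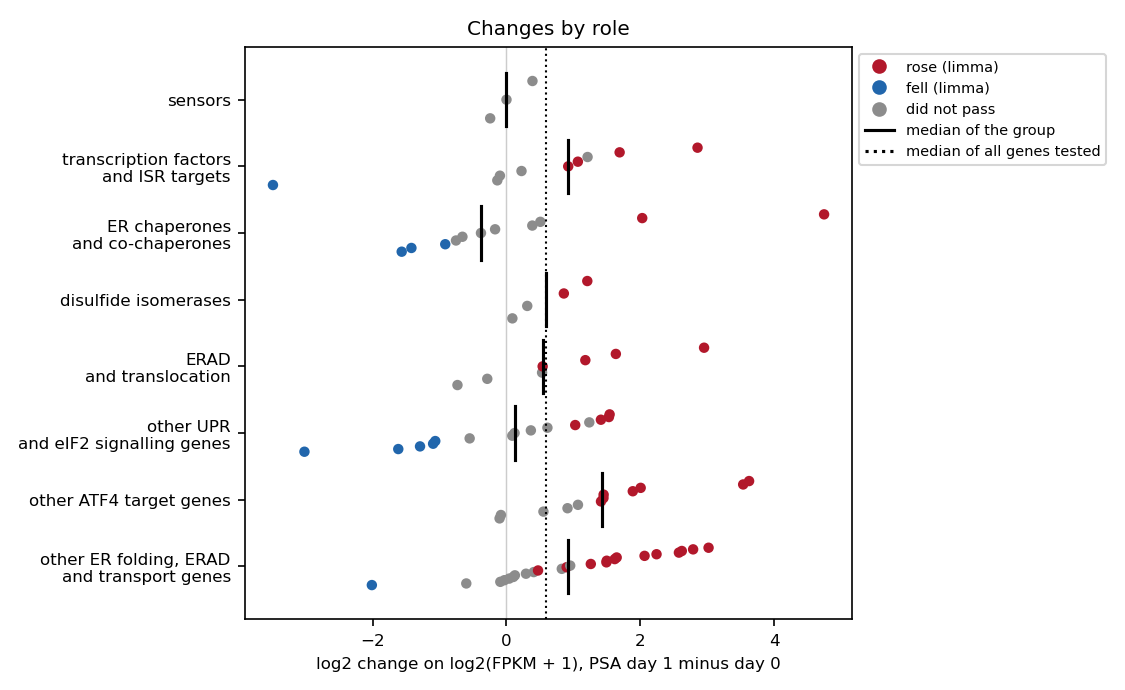
Log2 change on log2(FPKM + 1), PSA day 1 minus day 0 (horizontal axis), of each gene by role (rows), coloured by the limma call, with the median of each group as a solid bar and the median of all genes tested, 0.59, as a dotted line. The ER chaperones have a median of -0.38, left of the dotted line, and the other ATF4 target genes one of 1.43, right of it.

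The rest of the pathway was read from 55 genes listed by function, 53 of them in the table. Of 51 tested, 24 rose (47.1%, against 35.0% of all genes tested) and 6 fell (11.8%, against 19.0%). For 6 of the genes that rose the day 0 value was 0. In the authors' deposited table none is called higher and 2 lower (Atf3 and Cebpb). At an unadjusted p under 0.05, a threshold at which all genes were not counted, that table has none higher and 4 lower, Pdia5 and Sec62 besides Atf3 and Cebpb. Without day 1 library 2, 15 rose and 1 fell by limma, beside 2317 and 1317 of all 13903 genes tested. Among other ATF4 targets, 7 of 12 rose and none fell, also not at an unadjusted p under 0.05. With the median change of all genes set to 0, 2 of the 12 were lower at that unadjusted limma threshold. The median log2 change of these targets was 1.43, against 0.59 for all genes tested, and 0.49 against 0.028 in the authors' deposited table. Psat1, of serine synthesis, had an FPKM of 10.9, 12.1 and 11.1 in the day 1 libraries and was listed at 0 at day 0. Mthfd2, of mitochondrial one-carbon metabolism, had 9.90, 9.60 and 12.6 in the day 1 libraries and was listed at 0 at day 0. For Psat1 the authors' deposited table gives 0.17 and for Mthfd2 0.87, neither called, so an FPKM of 0 does not show that either was absent. Shmt2, the mitochondrial serine hydroxymethyltransferase, had 52.4, 50.7 and 42.8 at day 1, against 12.3 at day 0 (log2 change 1.89 ± 0.17, SE, limma adjusted p = 0.0064). Pck2, the mitochondrial phosphoenolpyruvate carboxykinase, had 30.7, 30.6 and 30.6 at day 1, against 6.87 at day 0, and the day 1 libraries were nearly equal (log2 change 2.01 ± 0.10, SE, limma adjusted p = 0.0035). Slc7a11 and Slc3a2, the subunits of the cystine and glutamate exchanger, did not pass, with log2 changes of -0.08 ± 0.16 and -0.10 ± 0.14 (SE). The authors' deposited table gives 1.97 for Slc7a11, of the opposite sign, and -0.22 for Slc3a2, neither called. About 4.57 fragments stand behind the day 0 value of Slc7a11.

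The other signalling genes were mixed, with 4 of 15 rising and 5 falling (26.7% and 33.3%, beside 35.0% and 19.0% of all genes tested). The remaining eIF2 kinases were called in both directions. Eif2ak1, the haem-regulated kinase, had an FPKM of 23.5, 18.9 and 19.9 at day 1, against 9.63 at day 0 (log2 change 1.03 ± 0.17, SE, limma adjusted p = 0.020). Eif2ak2, which encodes the double-stranded RNA sensor PKR, had 4.41, 5.05 and 5.23 at day 1, against 11.6 at day 0 (log2 change -1.10 ± 0.16, SE, limma adjusted p = 0.014). Eif2ak4, which encodes the amino acid sensor GCN2, had 5.04, 5.39 and 6.89 at day 1, against 19.6 at day 0 (log2 change -1.62 ± 0.22, SE, limma adjusted p = 0.013). The authors' deposited table gives 0.24, -0.71 and -0.41 for Eif2ak1, Eif2ak2 and Eif2ak4 without a call, each with the sign of the FPKM change. The proteases that release ATF6 in the Golgi also parted: Mbtps1, which cuts first, had 13.9, 13.3 and 15.5 at day 1, against 4.25 at day 0 and rose, and Mbtps2, which cuts second, had 2.51, 2.82 and 3.21 at day 1, against 7.02 at day 0 and fell. Eif2b5, a subunit of the exchange factor that phosphorylated eIF2 blocks, had 64.4, 55.8 and 43.5 at day 1, against 17.8 at day 0 (log2 change 1.54 ± 0.27, SE, limma adjusted p = 0.021).

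Of the other ER folding, ERAD and transport genes, 13 of 24 rose and 1 fell, beside 35.0% and 19.0% of all genes tested. The median of the list in the authors' deposited table was 0.014, and 3 of the limma calls have the opposite sign there. Nploc4, a cofactor of the ATPase that pulls proteins from the ER membrane, had 18.0, 14.9 and 17.4 at day 1, against 1.18 at day 0, with about 1.20 fragments behind the day 0 value (log2 change 3.02 ± 0.17, SE, limma adjusted p = 0.0038). Ero1l, the oxidase that recharges disulfide isomerases, had 4.83, 4.54 and 5.60 in the day 1 libraries and was listed at 0 at day 0, and 0.17 in the authors' deposited table without a call. The single fall was of Sec62, a translocation factor that also serves in ER turnover, with 17.4, 15.6 and 14.5 at day 1, against 66.8 at day 0 (log2 change -2.01 ± 0.15, SE, limma adjusted p = 0.0050), and -1.58 in the authors' deposited table without a call. Plasma cell markers, whose cells have a large ER, rose in 4 of 7 tested and fell in none, also not at an unadjusted p under 0.05, beside 35.0% and 19.0% of all genes tested. In 2 of those rises, Sdc1 and Jchain, the day 1 values lie outside the day 0 counting interval. No higher call is given to them by the authors' deposited table, where the median over the list is -0.17, and it gives -0.22 for Jchain and -0.12 for Fkbp11, which limma called higher. Of the 8 listed, Sdc1, Prdm1, Tnfrsf17 and Fkbp11 were listed at 0 at day 0, and the summed FPKM was 412 to 456 at day 1, against 316 at day 0. Their part in the rises of the folding and ERAD genes was not tested.

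Among the day 1 libraries the stress genes had a median coefficient of variation of 12.0% over the 34 genes against 25.2% over all genes, many of which are near 0. Dnajc3 was the most even, at 7.84, 7.83 and 7.79. Asns was the least even, since library 1 stood at 10.6 and the others at 5.04 and 5.74. Derl2, Sel1l and Ppp1r15a followed, with coefficients of variation of 36.8%, 33.1% and 31.6%. Library 3, the deepest, held the highest value for 14 of the 34 genes (41.2%), where it did so for 42.4% of all genes above 0 in every day 1 library, and it held the highest value of 6 of the 11 chaperones, among them Hspa5, Hsp90b1, Calr and Canx.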

How the data were processed

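Per the labels' protocols and the submitters' processing notes, the authors trimmed the adaptor with cutadapt, kept reads of at least 10 nt, aligned them with TopHat 1.4.1 to GRCm38.p6 and estimated FPKM with Cufflinks 2.2.1. Neither the annotation release nor the use of strand is given. Per the file headers, the table holds beside the FPKM a log2 fold change, an unused log2 abundance, a p-value and its adjusted form made by the authors; the processing notes list Cuffdiff, and no header says which test gave them.

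Changes were tested with limma 3.58.1 (trend, R 4.3.3) on log2(FPKM + 1), a scale that understates the change of low genes, for every gene that reached an FPKM of 1 in any library. The fit takes the spread of the lone day 0 library to be that of day 1 (2 residual degrees of freedom), so the standard errors leave out its larger counting error. Fragments were estimated from the FPKM step of 1182 single-transcript genes and all exons of a gene in GENCODE M21, which overstates them for genes with several transcripts; at day 0 60.1% of low values lay within 0.1 of a whole number. Intervals (Python 3.11.15, scipy 1.17.1) cover counting error only. A 0 can be a failed estimate. Promoters came from RefSeq.

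The genes and lists were chosen with earlier results of these data known. Values are given in every library for genes past the threshold, and for the sensors, Xbp1, Atf4, Ddit3 and Hspa5; of each pathway list, mainly those with the largest change past the threshold are named, and further genes were named after their values were seen. Of the pathway lists, Vldlr and Stc2 were not analysed here. Neutrophil, erythroid and T and NK cell markers rose in 3 of 4, 0 of 3 and 0 of 5 tested, and fell in 0, 0 and 2. MHC class II markers rose in 2 of 5, dendritic cell markers in 1 of 5, and 4 of the dendritic cell markers fell. Among all genes tested, 35.0% rose and 19.0% fell.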

Additional observations from a re-analysis of the deposited data

How the results depend on the processing

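Of the 16 calls, 16 held with a pseudocount of 0.1 or 5, without a filter and with an FPKM of at least 1 asked in 2 libraries, though that last filter raised the falls to 7, and 15 held without the trend, all but Herpud1. Only Atf5, Creld2, Manf, Syvn1 and Trib3 held under every limma alternative run for them. Atf5, Creld2 and Trib3 were listed at 0 at day 0. The setting of genes above 0 left them out, and every other alternative used the same 0. The authors' deposited table calls none of these genes, so holding here does not make a call more reliable. Leaving out 1 day 1 library gave 5 to 11 rises and 0 to 3 falls among the stress genes (without library 2, where no gene fell by limma, 2 were lower at an unadjusted p under 0.05), a median of 0.27 to 0.35, 2317 to 3875 rises and 1317 to 2012 falls of all genes, and 15 to 20 rises and 1 to 7 falls of the other pathway genes. The lone day 0 library could not be left out. With the median change of all genes set to 0, 7 stress genes rose and 10 fell (median -0.25), beside 3034 rises and 3895 falls of all 13903 genes tested. In that setting 17 other pathway genes rose and 11 fell, and Herpud1 turned to -0.053. Over genes above 0 at day 0, by construction without 4 of the stress genes, the median was 0.16 and 2834 of all genes rose. The authors' deposited table calls 0 stress genes higher and 2 lower (median -0.013), 49 and 443 of all genes, and 0 and 2 other pathway genes, and Ppp1r15b and Herpud1 stand at -0.064 and -0.16; the cause was not tested. Keeping only calls with every day 1 value outside the day 0 counting interval left 8 rises and 4 falls (18.5% and 13.9% of all genes tested), without Atf5, Trib3, Chac1 and Herpud1. No paired analysis was possible because day 0 has a single library.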
